A study of Homo sapiens with 18 samples.

Results

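The EGF receptor family and its ligands were described in cultures and xenografts of Saos-2, an established human osteosarcoma line. Members were the 10 genes of the processed data whose symbol was on a list of 3 receptors (EGFR, ERBB2, ERBB3) and 7 ligands (AREG, EREG, HBEGF, TGFA, EPGN, BTC, NRG1), and all 10 were found among the 50119 genes listed. The series holds 18 poly(A) RNA libraries, 3 in each of 6 groups, and all groups carry the same label for genotype, WT. D-2 was flat culture, D-3 was culture of the cells within Matrigel, and DP-3 was tissue printed with cells in a bioink of methacrylated gelatin and alginate, each sampled on day 14. DP-3 day 1 was the printed tissue on day 1. FIT was the fresh tumor, grown under the skin of female BALB/c nude mice that were 4 weeks old at implantation and taken at week 2, after injection of the cells with Matrigel. IT was pieces of such tumors cultured on Matrigel for 14 days. IT and FIT came from divided tumors, but the labels do not tie a library of one to a library of the other, and both can hold mouse cells of the host. The sources used here do not say that mouse reads were set apart. The labels spell the line Soas-2, and they do not say whether replicates were separate cultures or animals, so the p-values given here measure only the spread between these libraries, which may be technical.

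Ligands of this family are made as membrane proteins whose outer part is cut off by proteases such as ADAM17 and then binds receptors of the same or a neighbouring cell. EGFR binds EGF, TGFA, AREG, EREG, EPGN, BTC and HBEGF, whereas ERBB3 binds neuregulins such as NRG1. ERBB2 has no known ligand and ERBB3 has little kinase activity of its own, so both act as partners in receptor pairs, which feed the RAS-ERK and PI3K pathways. In bone, EGFR signalling is known to act on cells of the osteoblast lineage, and the receptor is present in many osteosarcoma lines.

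Of the ligands, 4 lie together on chromosome 4 within 486 kb (GRCh38). EPGN (chromosome 4, 74308470 to 74316789, plus strand), EREG (74365145 to 74388749, plus strand) and AREG (74445136 to 74455005, plus strand) follow each other in 1 direction, and BTC (74744759 to 74794523) lies on the minus strand. EREG and AREG are 56.4 kb apart. EGFR lies on chromosome 7 (55019017 to 55211628, plus strand), ERBB2 on chromosome 17 (39687914 to 39730426, plus strand), ERBB3 on chromosome 12 (56076799 to 56103505, plus strand), HBEGF on chromosome 5 (140332843 to 140346603, minus strand) and TGFA on chromosome 2 (70447284 to 70553826, minus strand).

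The start regions of EREG, AREG and BTC are shown because these neighbours on chromosome 4 were all higher in D-3 than in D-2. They were thus picked by that result. AREG and BTC held about 3 and 5 read pairs in D-2 and entered the test only through D-3. EPGN, also in the cluster, was too low to be tested. Each start region is the stretch from 250 bases before to 50 bases after the gene's start in RefSeq (GRCh38.p14), on the gene's own strand. Capitals mark matches, on either strand, to the motifs TGANTCA (AP-1), TGACGTCA (CRE, the site of CREB factors) and GGAATG (TEAD).
EREG (chr4:74364895-74365194, plus strand): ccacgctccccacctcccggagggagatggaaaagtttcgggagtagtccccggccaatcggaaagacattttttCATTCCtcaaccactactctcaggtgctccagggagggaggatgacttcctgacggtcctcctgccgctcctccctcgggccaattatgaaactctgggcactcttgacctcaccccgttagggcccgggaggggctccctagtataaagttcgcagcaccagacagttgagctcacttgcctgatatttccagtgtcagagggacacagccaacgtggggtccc
AREG (chr4:74444886-74445185, plus strand): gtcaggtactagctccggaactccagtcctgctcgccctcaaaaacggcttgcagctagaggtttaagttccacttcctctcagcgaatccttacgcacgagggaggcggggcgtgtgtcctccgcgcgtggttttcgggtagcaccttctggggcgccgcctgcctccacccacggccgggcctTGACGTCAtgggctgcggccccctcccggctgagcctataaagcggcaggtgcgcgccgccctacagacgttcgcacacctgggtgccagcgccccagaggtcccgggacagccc
BTC (chr4:74794474-74794773, minus strand): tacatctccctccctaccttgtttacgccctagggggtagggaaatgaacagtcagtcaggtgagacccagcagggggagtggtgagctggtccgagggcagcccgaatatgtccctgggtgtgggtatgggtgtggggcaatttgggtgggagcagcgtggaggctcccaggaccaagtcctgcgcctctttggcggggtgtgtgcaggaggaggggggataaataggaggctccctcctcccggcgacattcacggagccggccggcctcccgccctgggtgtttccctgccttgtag
The EREG window held 1 TEAD match, written CATTCC on this strand, and the AREG window held 1 CRE match. The BTC window held none of the 3 motifs. Among all 35116 promoter windows of the same length, 14.03% held the TEAD motif, 1.85% the CRE and 7.71% the AP-1 motif. The CRE is 1 base longer than the AP-1 motif, so that a CRE match does not hold an AP-1 match. RefSeq had windows for 8 of the 10 members, 10 windows in all, and not for ERBB3 and NRG1. An AP-1 match was found in 2 of the 10 windows, that of ERBB2 and that of an EGFR start inside the gene.

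The libraries held between 23721666 and 79082786 estimated counts, and all but FIT replicate 3, the lowest, held at least 50327345. Levels are given as FPKM, the authors' fragments per kilobase of gene scaled by the library's total, which allows genes to be compared. A level from at most 12 estimated counts, about 3 read pairs, was taken as at or below the limit of detection. Several libraries stood apart. IT replicate 3 correlated more with D-3 replicate 1 (Pearson r = 0.929 across 12394 genes) than with the other IT libraries (0.898 with both), and D-3 replicate 2 more with DP-3 replicate 2 (0.935) than with D-3 replicates 1 and 3 (0.924 and 0.932). FIT replicate 3 had r = 0.913 and 0.916 with its group, against 0.956 between the other FIT libraries. The 3 DP-3 day 1 libraries differed from each other by a median of 3.14% to 3.44% in well-covered genes, less than any other group (4.22% to 22.0%), and listed 34591 to 34919 genes above 0 FPKM, against 22915 to 29630 elsewhere. Tests with DP-3 day 1 that passed an adjusted p of 0.05 are therefore also given with its libraries summed to 1 sample. The mitochondrial share of summed FPKM was 22.95% to 24.7% in FIT and 18.7% to 25.2% in IT, against 9.85% to 17.0% in D-2 and D-3 and 17.7% to 19.1% in DP-3 and DP-3 day 1, except 34.0% in DP-3 replicate 3. This share moved with the comparisons of FIT with the cultures, DP-3 replicate 3 apart, and its part in their results was not tested. Bone markers went in part against the label. ALPL, the alkaline phosphatase for which Saos-2 is known, reached at most 0.148 FPKM in any library, SP7 at most 0.0949 and IBSP at most 0.0802, whereas RUNX2 was between 0.61 and 2.41. The identity of the line was not tested further.

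EGFR was the main receptor transcript in every library, with 65.5% to 90.3% of the summed FPKM of the 3 receptors. Its level was 13.5, 13.98 and 13.4 FPKM in D-2, 14.3, 16.2 and 17.4 in DP-3, 14.1, 14.1 and 14.3 in DP-3 day 1, 9.08, 8.61 and 6.72 in D-3, 15.8, 14.9 and 5.76 in IT, and 12.6, 13.5 and 12.7 in FIT. All D-3 libraries were below all FIT and D-2 libraries, and IT replicate 3, the library that resembled D-3, was the lowest of the 18. By mean level the order was DP-3, DP-3 day 1, D-2, FIT, IT and D-3, and of these neighbours only DP-3 day 1 and D-2 did not overlap. For that pair edgeR on counts gave the other direction (log2 fold change -0.25 in DP-3 day 1 against D-2). EGFR was 0.73 lower on the log2 scale in D-3 than in FIT (log2 fold change -0.73, SE 0.17, edgeR adjusted p = 0.0364) and 0.99 lower than in D-2 (-0.99, SE 0.13, adjusted p = 0.00301), both under the 2-fold asked of a call. The difference from D-2 lay at the 2-fold limit and passed it without D-2 replicate 3, D-3 replicate 1 or D-3 replicate 2 (-1.04 to -1.01), with no filter (-1.04) and with the replicate block (-1.01). It was smaller with limma on log2(FPKM + 0.1), at -0.75, and with an FPKM minimum of 1, at -0.84. The difference from FIT missed an adjusted p of 0.05 whichever of the 6 libraries was left out (edgeR adjusted p = 0.0508 to 0.15).

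ERBB2, the partner receptor, varied little. It was 2.34, 2.01 and 2.17 FPKM in D-2, 2.06, 1.92 and 1.80 in DP-3, 2.79, 2.98 and 3.00 in DP-3 day 1, 2.16, 2.03 and 2.59 in D-3, 1.89, 1.95 and 2.35 in IT, and 2.07, 1.93 and 2.56 in FIT. Only DP-3 day 1 stood above its neighbour in the order of means, D-3, without overlap, and the other neighbours overlapped. It was not called by edgeR in any of the 8 comparisons. In edgeR the adjusted p was under 0.05 in DP-3 against DP-3 day 1 (log2 fold change -0.33, SE 0.10, adjusted p = 0.047) and was 0.463 with the day 1 libraries as 1 sample. In DP-3 day 1 against D-2 the log2 fold change was 0.12 (SE 0.08, adjusted p = 0.279), while limma gave 0.41 (adjusted p = 0.0129) and an FPKM minimum of 1 gave 0.28 (adjusted p = 0.0218).

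ERBB3, the receptor for neuregulins, was low and uneven. It was 0.0909, 0.0446 and 0.0423 FPKM in D-2, 0.0169, 0.0611 and 0.0706 in DP-3, 0.173, 0.144 and 0.134 in DP-3 day 1, 0.457, 0.231 and 0.735 in D-3, 0.255, 0.224 and 0.682 in IT, and 0.132, 0.124 and 0.122 in FIT. D-3 and IT overlapped at the top, D-2 and DP-3 overlapped at the bottom, and DP-3 day 1 and FIT lay between, apart from each other and from both. ERBB3 rose 6.63-fold in D-3 against D-2 (log2 fold change 2.73, SE 0.53, adjusted p = 0.00864). In D-3 against FIT the difference of 1.83 (SE 0.48) missed the threshold in edgeR (adjusted p = 0.0532) and passed it in DESeq2 (adjusted p = 0.00194), with no filter (0.039) and in a fit of all 18 libraries (0.0344). In IT, ERBB3 was above FIT in all 3 libraries, with a log2 fold change of 1.60 (SE 0.52, adjusted p = 0.283).

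**Figure D1:**
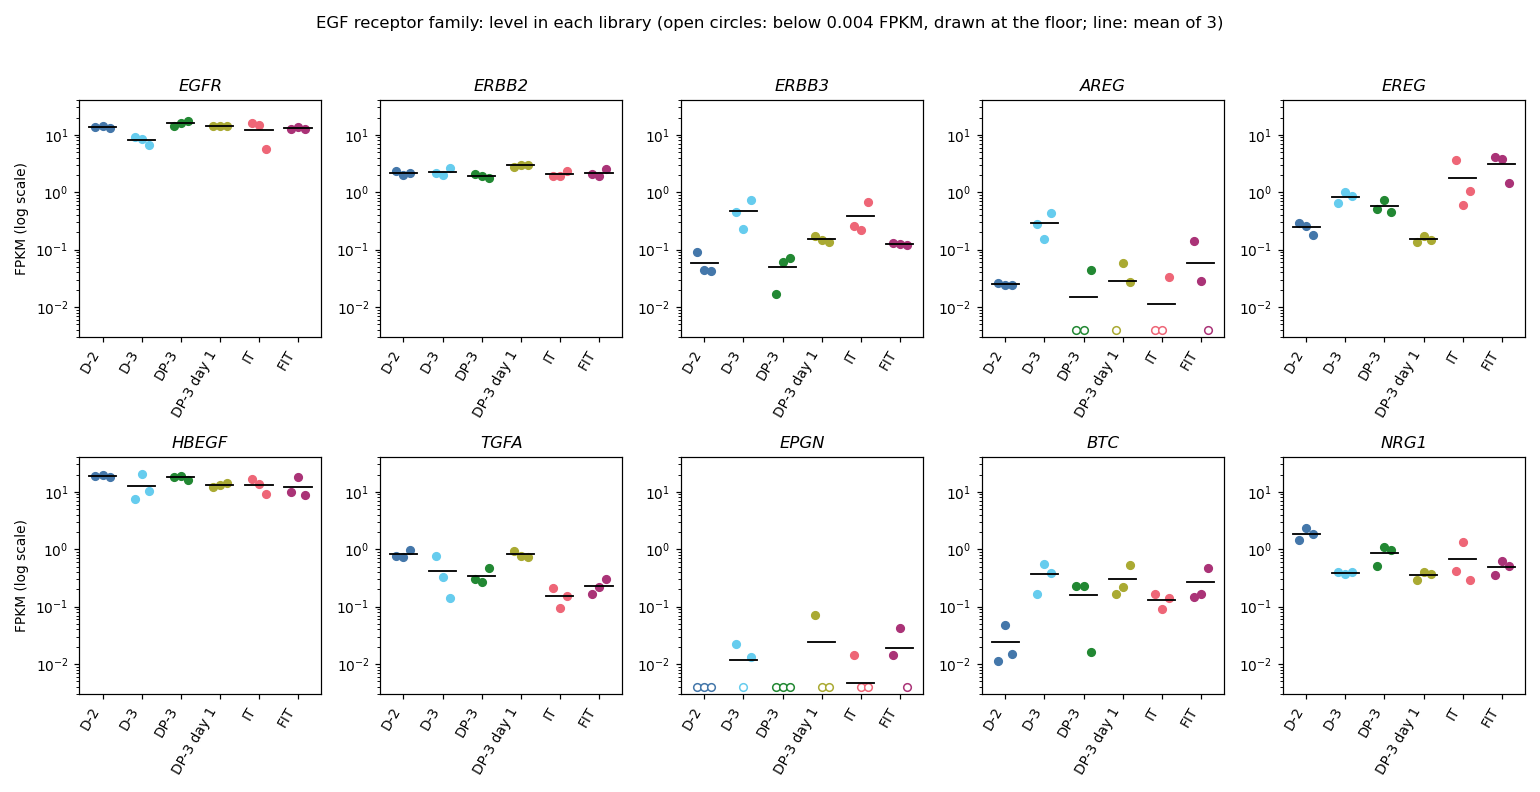
FPKM of the 10 members in each library (points, log axis) for the 6 groups, with the mean of 3 libraries as a line and open circles for values at or near 0. EGFR and HBEGF lie near the top in every group, EREG spans 0.136 to 4.05 FPKM, and EPGN and AREG lie near the floor outside a few libraries.

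HBEGF, the heparin-binding ligand of EGFR, was the most abundant ligand in all 18 libraries. It made up 67.4% to 92.0% of the summed ligand FPKM, with a median of 86.1%. Its level was 19.0, 19.5 and 18.01 FPKM in D-2, 17.9, 19.2 and 16.3 in DP-3, 11.9, 13.0 and 14.6 in DP-3 day 1, 7.501, 20.4 and 10.4 in D-3, 16.7, 13.9 and 9.05 in IT, and 10.1, 18.2 and 8.73 in FIT. The D-3 and FIT libraries were spread widely, D-3 replicate 2 was the highest of the 18, and all neighbours in the order of group means overlapped. HBEGF was not called in any comparison. It was higher by 0.70 on the log2 scale in DP-3 than in DP-3 day 1 (SE 0.10, adjusted p = 0.00515) and lower in DP-3 day 1 than in D-2 (-0.83, SE 0.08, adjusted p = 0.000352), under 2-fold in both. Each was refitted in 14 alternatives, the day 1 libraries as 1 sample among them. The log2 fold change then lay between 0.43 and 0.76 in DP-3 against DP-3 day 1. It lay between -0.89 and -0.52 in DP-3 day 1 against D-2. In DP-3 against DP-3 day 1 the adjusted p was 0.16 in a fit of all 18 libraries. In DP-3 day 1 against D-2 the largest adjusted p of any alternative was 0.0715, so neither difference passed the threshold in every alternative.

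EREG, an EGFR ligand also known from keratinocytes and macrophages, was highest in the fresh tumor. It was 0.296, 0.259 and 0.178 FPKM in D-2, 0.505, 0.742 and 0.447 in DP-3, 0.136, 0.173 and 0.145 in DP-3 day 1, 0.654, 1.004 and 0.854 in D-3, 3.67, 0.602 and 1.05 in IT, and 4.05, 3.73 and 1.47 in FIT. Every FIT library was above every library of D-2, D-3, DP-3 and DP-3 day 1, while IT overlapped FIT through 1 library, replicate 1. The order by mean was FIT, IT, D-3, DP-3, D-2 and DP-3 day 1, and only DP-3 against D-2 and D-2 against DP-3 day 1 did not overlap among neighbours. Its share of summed ligand FPKM was 12.8% to 27.1% in FIT, 3.75% to 17.3% in IT, 4.396% to 6.78% in the D-3 libraries, 2.46% to 3.44% in DP-3, 0.845% to 1.38% in D-2 and 0.888% to 1.18% in DP-3 day 1.

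**Figure D2:**
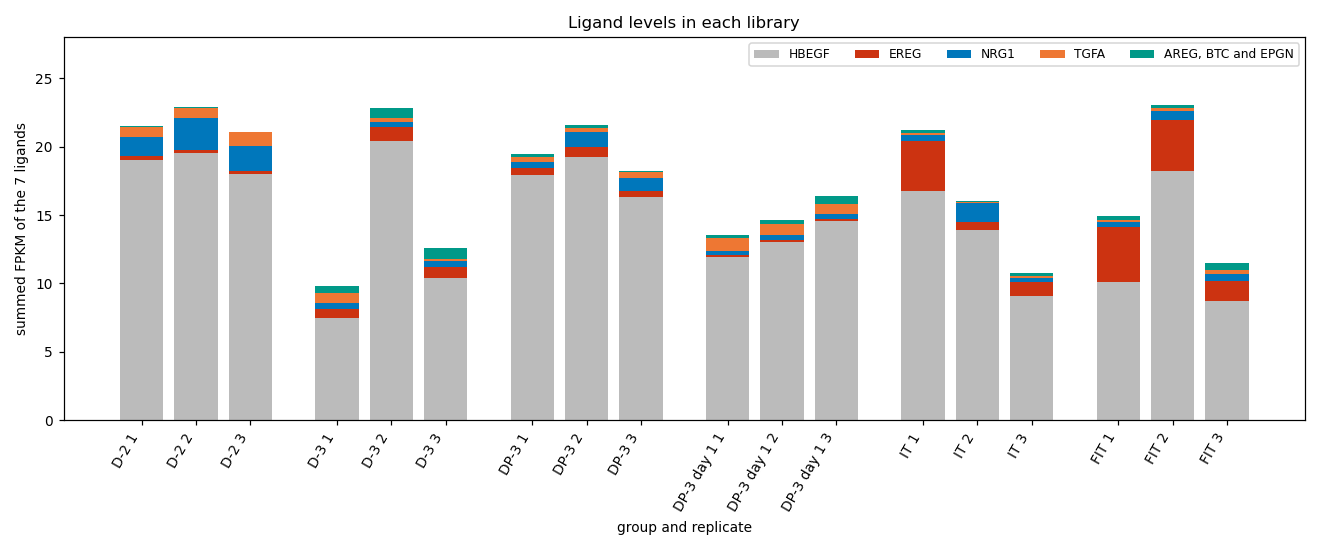
Summed FPKM of the 7 ligands in each library, stacked by ligand, with AREG, BTC and EPGN joined. HBEGF takes 67.4% to 92.0% of each bar, EREG takes 12.8% to 27.1% in the FIT libraries, and NRG1 takes 6.63% to 10.1% in the D-2 libraries.

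EREG fell in the 3 kinds of culture grown from cells against the tumor. The log2 fold change was -3.50 in D-2 (SE 0.44, 11.3-fold lower, edgeR adjusted p = 0.00282), -1.95 in D-3 (SE 0.41, 3.86-fold lower, adjusted p = 0.0278) and -2.33 in DP-3 (SE 0.40, 5.02-fold lower, adjusted p = 0.0219). These comparisons share the FIT libraries. The fall in D-2 held when each library was left out. That in D-3 was lost without D-3 replicate 1 (adjusted p = 0.111) or 3 (0.116) and without FIT replicate 1 (0.0792) or 2 (0.0898), and that in DP-3 without any 1 DP-3 library (0.0566 to 0.0803) and without FIT replicate 1 (0.0775) or 2 (0.0658). Without FIT replicate 3, the shallow library with the lowest FIT level, the difference was -3.87 for D-2, -2.30 for D-3 and -2.67 for DP-3 (adjusted p = 0.000659, 0.00564 and 0.00481). In IT the difference was -0.82 (SE 0.67, adjusted p = 0.673), and without IT replicate 3 it was -0.56 (SE 0.76, adjusted p = 0.826).

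Among the cultures, EREG rose 2.87-fold in D-3 against D-2 (log2 fold change 1.52, SE 0.30, adjusted p = 0.00964) and 4.42-fold in DP-3 from day 1 to day 14 (2.14, SE 0.29, adjusted p = 0.00399). The rise in D-3 passed the threshold in all 12 alternatives that tested it. The rise with time in DP-3 missed it when the day 1 libraries counted as 1 sample (2.15, SE 0.51, adjusted p = 0.214). In DP-3 against D-2 the log2 fold change was 1.17 (SE 0.30, adjusted p = 0.0861), and in DP-3 day 1 against D-2 it was -0.99 (SE 0.29, adjusted p = 0.0314), just under 2-fold, with an adjusted p of 0.187 when the day 1 libraries counted as 1 sample.

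Some markers of other cell types moved with the tumor group as well. KRT5, a keratin of basal keratinocytes, was 0.642, 0.917 and 2.04 FPKM in FIT and at most 0.1 elsewhere, and its partner KRT14 was 10.4, 1.67 and 0.115 in FIT and at most 0.336 elsewhere. KRT14 ordered the FIT libraries as EREG did and KRT5 in reverse. IT replicate 1, with 3.67 FPKM of EREG, had 0.0689 of KRT5 and 0.136 of KRT14. The keratinocyte list of 6 genes summed to 21.8 to 41.7 FPKM in FIT and 16.3 to 27.99 elsewhere, most of it KRT10 (16.2 to 30.2 in all libraries), with KRT1 and DSG3 at 0 in all FIT libraries. The endothelial list of 6 genes summed to 3.90 to 6.08 in FIT, 4.21 to 6.52 in IT and 1.06 to 2.36 elsewhere, with PECAM1 leading and VWF, KDR and CLDN5 at most 0.169. CDH5 and TEK also had their highest means in FIT and IT. VWF and KDR went the other way, with means of 0.0077 and 0.0017 in FIT. Their means were 0.0656 and 0.035 in D-3 and 0.12 and 0.037 in DP-3 day 1. The osteoblast list of 7 genes summed to 22.8 to 24.7 in FIT against 3.85 to 14.96 elsewhere, and COL1A1 made up 19.6 to 21.0 of it. RUNX2 and SPP1 also had their highest means in FIT, 1.54 and 1.62. ALPL, SP7, IBSP and BGLAP did not. The mean of BGLAP was 0.193 in FIT and 0.577 in DP-3 day 1, and that of ALPL was 0.0135 in FIT and 0.0881 in DP-3. The part of these cells, and of the mitochondrial share, in the EREG difference was not tested. Without DP-3 replicate 3, which had the highest mitochondrial share, EREG in DP-3 against FIT was at -2.21 (SE 0.49, edgeR adjusted p = 0.0697). Without DP-3 replicate 1 it was at -2.24 and without DP-3 replicate 2 at -2.55 (edgeR adjusted p = 0.0803 and 0.0566). Leaving out replicate 3 is thus no test of that share. The macrophage list of 6 genes summed to 0.67 to 0.951 in FIT and 0.869 to 2.36 elsewhere, the skeletal muscle list of 6 to 0.361 to 5.00 in FIT and at most 0.362 elsewhere, and the adipocyte list of 5 to 0.155 to 0.574 in FIT and 0.168 to 8.71 elsewhere. In bulk RNA, a change in the number of cells of a type and a change of RNA per cell cannot be told apart.

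**Figure D3:**
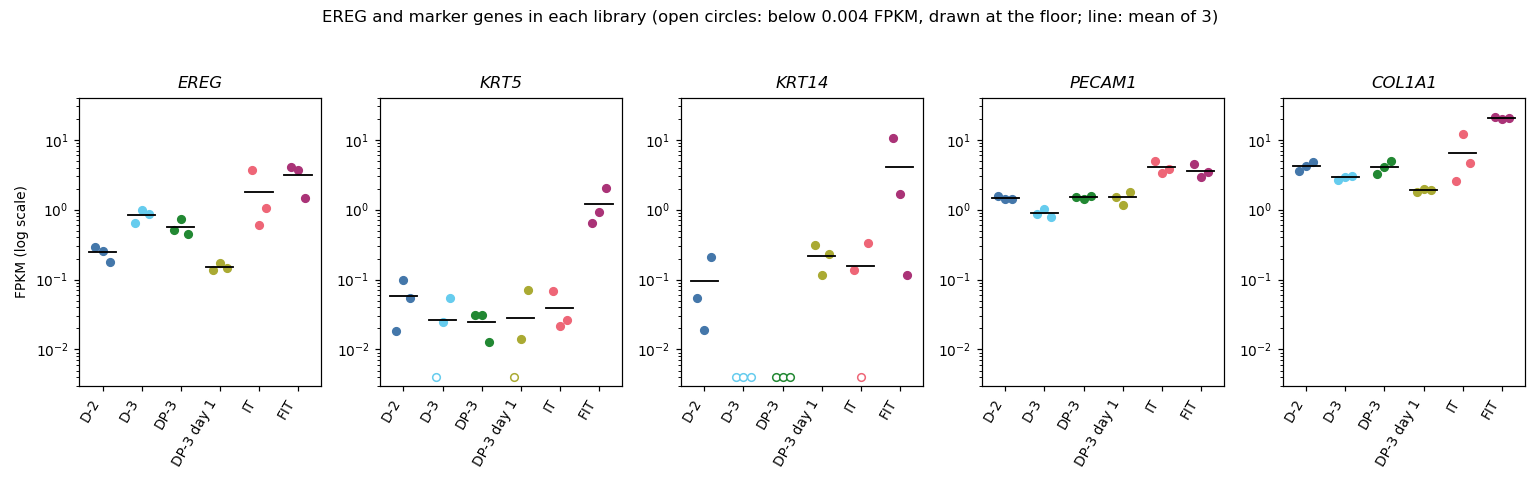
FPKM of EREG and of 4 marker genes in each library (points, log axis), with the mean of 3 libraries as a line and open circles for values at or near 0. EREG, KRT5 and COL1A1 are highest in FIT, and PECAM1 is high in FIT and IT alike.

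NRG1, the neuregulin that binds ERBB3, was highest in flat culture. It was 1.43, 2.30 and 1.88 FPKM in D-2, 0.511, 1.09 and 0.958 in DP-3, 0.294, 0.404 and 0.372 in DP-3 day 1, 0.398, 0.369 and 0.408 in D-3, 0.412, 1.34 and 0.290 in IT, and 0.357, 0.628 and 0.511 in FIT. Every D-2 library was above every library of the other groups, and all other neighbours in the order D-2, DP-3, IT, FIT, D-3 and DP-3 day 1 overlapped. Its share of summed ligand FPKM was 6.63% to 10.1% in D-2 and 1.62% to 8.37% elsewhere, the highest of these in IT replicate 2.

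NRG1 rose 4.12-fold in D-2 against FIT (log2 fold change 2.04, SE 0.27, adjusted p = 0.00346). It fell in D-3 against D-2 (-2.50, SE 0.19, adjusted p = 0.00112) and in DP-3 day 1 against D-2 (-2.69, SE 0.21, adjusted p = 0.000125), comparisons that share the D-2 libraries. All 3 of these calls held in every alternative run, also with the day 1 libraries as 1 sample. From day 1 to day 14 of DP-3 it rose 2.86-fold (1.52, SE 0.30, adjusted p = 0.0132). That rise was lost with limma on log2(FPKM + 0.1) (1.01, adjusted p = 0.0605), with the day 1 libraries as 1 sample (adjusted p = 0.26) and without day 1 replicate 1 (0.0535) or 3 (0.0507). In DP-3 against D-2 the log2 fold change was -1.15 (SE 0.30, adjusted p = 0.0893). ERBB3, its receptor, was lowest in D-2 and DP-3, where NRG1 had its highest means.

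TGFA, an EGFR ligand, was 0.751, 0.740 and 0.974 FPKM in D-2, 0.306, 0.264 and 0.471 in DP-3, 0.934, 0.761 and 0.737 in DP-3 day 1, 0.769, 0.329 and 0.140 in D-3, 0.210, 0.0954 and 0.156 in IT, and 0.166, 0.220 and 0.302 in FIT. D-2 and DP-3 day 1 were high and overlapped, IT and FIT were low, D-3 spread from the low to the high groups, and all neighbours in the order of means overlapped. TGFA rose 3.96-fold in D-2 against FIT (log2 fold change 1.98, SE 0.33, adjusted p = 0.00599), a call that held in all 12 alternatives that tested it. EdgeR called it in no other comparison. From day 1 to day 14 of DP-3 the log2 fold change was -0.94 (SE 0.31, adjusted p = 0.0724), with no overlap, and limma called it (-1.05, adjusted p = 0.0319), while the adjusted p was 0.434 with the day 1 libraries as 1 sample. In DP-3 against D-2 it was -1.26 (SE 0.31, adjusted p = 0.0779) and in D-3 against D-2 -1.24 (SE 0.56, adjusted p = 0.125), and DESeq2 called both (adjusted p = 0.00206 and 0.0475).

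BTC, betacellulin, a ligand of EGFR and ERBB4, was close to the limit of detection in D-2. It was 0.0111, 0.0478 and 0.0150 FPKM in D-2 (3, 12 and 4 estimated counts), 0.233, 0.229 and 0.0160 in DP-3, 0.169, 0.217 and 0.523 in DP-3 day 1, 0.167, 0.559 and 0.386 in D-3, 0.163, 0.0915 and 0.144 in IT, and 0.146, 0.169 and 0.476 in FIT. D-2 lay below every library of D-3, DP-3 day 1, IT and FIT, and the other neighbours in the order of means overlapped. BTC fell in D-2 against FIT (log2 fold change -3.13, SE 0.81, adjusted p = 0.0258) and rose in D-3 against D-2 (3.54, SE 0.74, adjusted p = 0.0113) and in DP-3 day 1 against D-2 (3.20, SE 0.74, adjusted p = 0.0129). Since the D-2 libraries held about 5 read pairs in all, the summed counts give a plainer ratio. FIT was 7.68 times D-2 (95% exact interval 2.90 to 25.6), D-3 was 13.9 times D-2 (5.64 to 44.4) and DP-3 day 1 was 10.8 times D-2 (4.21 to 35.1), where the intervals cover counting error only and take 4 counts as 1 read pair. The fall against FIT was lost without D-2 replicate 1 (adjusted p = 0.0799) or 3 (0.0803), and the rise in DP-3 day 1 with its libraries as 1 sample (0.0717).

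AREG, amphiregulin, was detected mainly in D-3. It was 0.282, 0.150 and 0.426 FPKM there (35, 21 and 56 estimated counts), and 14 of the 18 libraries were at or below 12 counts. Outside D-3 only FIT replicate 1 was above that limit, at 0.144 FPKM and 19 counts, just below the lowest D-3 library. AREG rose in D-3 against D-2 (log2 fold change 3.05, SE 0.61, adjusted p = 0.00973), a call that was lost in a fit of all 18 libraries (adjusted p = 0.105). D-2 held about 3 read pairs in all, and the ratio of summed counts was 11.01 (95% exact interval 3.40 to 56.6). Against FIT the log2 fold change was 2.11 (SE 1.03, adjusted p = 0.253) and the ratio of summed counts 3.73 (1.51 to 11.01). As for BTC, these intervals cover counting error only and leave out the spread between libraries. The FIT libraries held 19, 4 and 0 counts of AREG. EPGN, epigen, was at or below 12 counts in 17 of the 18 libraries and at 0 in all of D-2 and DP-3. Its highest level was 0.0721 FPKM, from 15 counts in DP-3 day 1 replicate 1, and it was under the filter on low values in all 8 comparisons.

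Counted over the members, D-2 had the most calls against the tumor. A call needed an adjusted p below 0.05 in edgeR's quasi-likelihood test and a change of at least 2-fold, and a gene was tested only where 3 or more of the 6 libraries reached 0.1 FPKM. In D-2 against FIT 4 of 8 tested members were called, 2 up and 2 down, where 14.6% of all genes tested were called. In D-3 against FIT 1 of 9 was called, against 6.45% of all genes, and in DP-3 against FIT 1 of 8, against 4.82%. In both cases the member was EREG, down. Shares of 1 in 9 and 1 in 8 members are near these backgrounds. The median log2 fold change of the tested members was 0.19 for D-2, -0.01 for D-3 and 0.19 for DP-3, beside -0.09, 0.02 and -0.06 over all genes.

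In IT against FIT edgeR called 0 of the 8 tested members (adjusted p = 0.283 to 0.952), and 1, ERBB3, had an unadjusted p under 0.05. Of all genes 0% were called, with 2693 at an unadjusted p under 0.05 and a smallest adjusted p of 0.0902. DESeq2 called 641 genes, a fit of all 18 libraries 553, edgeR without a filter 53 and limma 0, and each of these called 0 members. Without IT replicate 3, which stood apart, 0 members were called. The median log2 fold change was -0.08 over the members and 0.01 over all genes.

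Among the cultures, D-3 against D-2 had the most calls, 5 of 9 tested members, 4 up (ERBB3, AREG, EREG and BTC) and 1 down (NRG1), where 18.5% of all genes were called. All D-2 libraries were under 0.1 FPKM for ERBB3, AREG and BTC, so these members entered the test only through D-3, the group where they were high, and their calls are no support for the count. The same holds for BTC in D-2 against FIT and in DP-3 day 1 against D-2, which it entered only through FIT and DP-3 day 1. Without D-3 replicate 2 the count was 4 of 6 tested, and without D-3 replicate 3 it was 2 of 6 tested, EREG and NRG1, since fewer low members then reached the filter. In DP-3 day 1 against D-2 2 of 8 were called, BTC up and NRG1 down, against 17.2% of all genes, and 1 with the day 1 libraries as 1 sample (8.5% of all genes). From day 1 to day 14 of DP-3 2 of 8 were called, EREG and NRG1, both up, against 7.56% of all genes, and 0 with the day 1 libraries as 1 sample (0% of all genes, with 3 members at an unadjusted p under 0.05). In DP-3 against D-2 edgeR called 0 of 6 (adjusted p = 0.0779 to 0.492), against 1.04% of all genes, with 3 members and 4210 genes at an unadjusted p under 0.05. These 3 members, EREG, NRG1 and TGFA, were called by DESeq2 (adjusted p = 0.00452, 0.00284 and 0.00206), and limma, a fit of all 18 libraries and edgeR without a filter called 0. EGFR was 0.25 lower in DP-3 day 1 than in D-2 (log2 fold change -0.25, SE 0.04, adjusted p = 0.00241), but 0.06 higher with limma on log2(FPKM + 0.1) (adjusted p = 0.292). With RLE scaling it was -0.24 (adjusted p = 0.00293), and DESeq2, edgeR without a filter and the replicate block also kept an adjusted p under 0.05. It was lost in a fit of all 18 libraries (-0.24, adjusted p = 0.513) and with an FPKM minimum of 1 (-0.09, adjusted p = 0.0777). With the day 1 libraries as 1 sample only the size of the EGFR difference is given, -0.25 (SE 0.07). In FPKM, EGFR was higher in every DP-3 day 1 library than in every D-2 library, so its direction depended on the scale. From day 1 to day 14 of DP-3 its log2 fold change was 0.44 (SE 0.11, adjusted p = 0.0282), under 2-fold, with an adjusted p of 0.392 when the day 1 libraries counted as 1 sample.

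**Figure D4:**
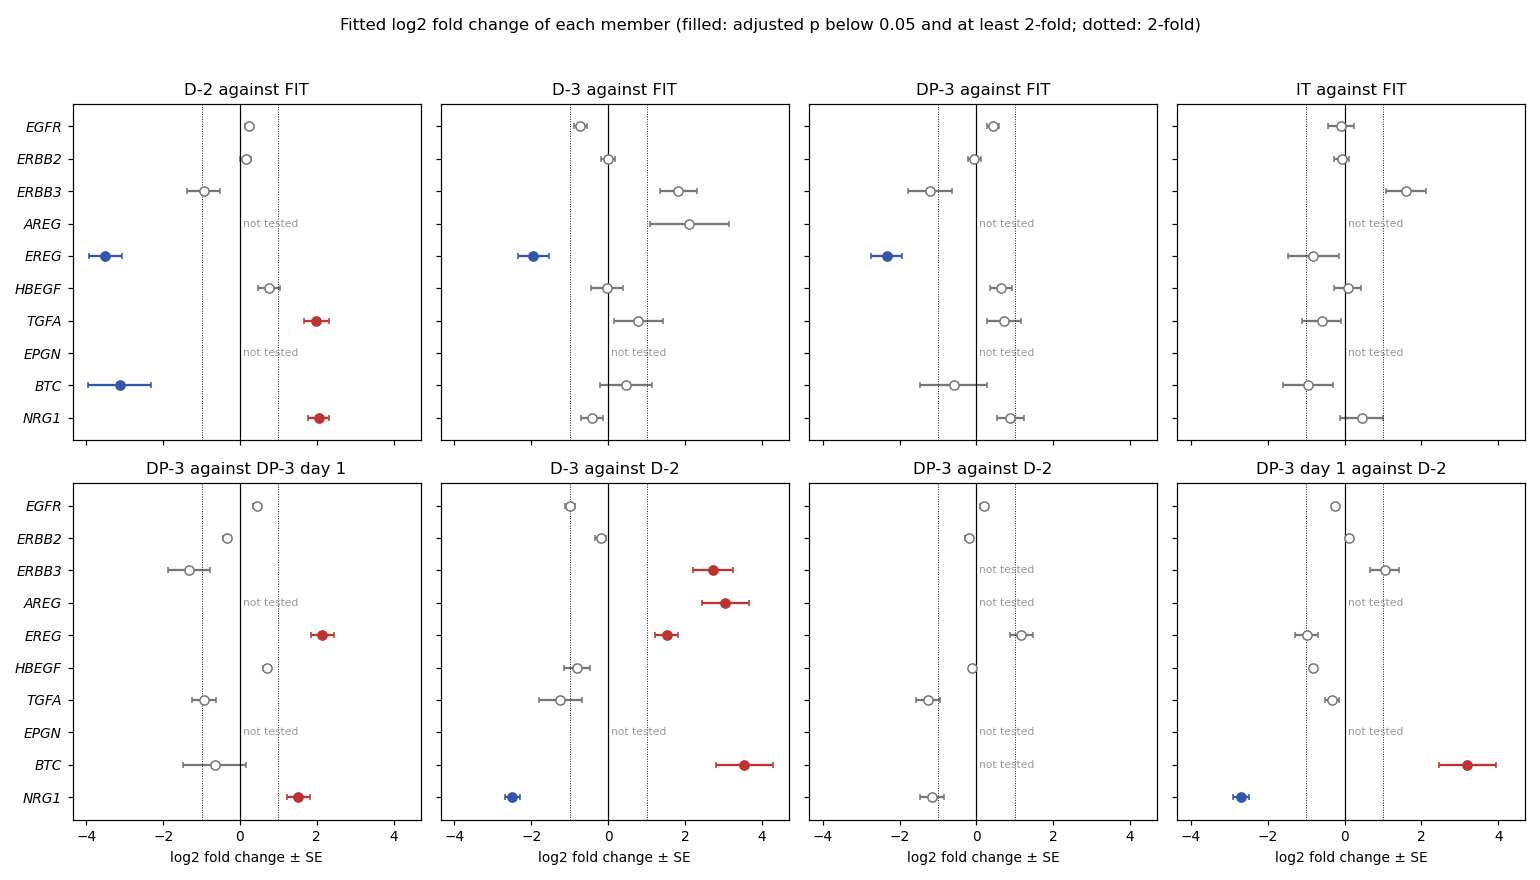
Fitted log2 fold change of each member with its SE in the 8 comparisons, filled where the adjusted p was below 0.05 and the change at least 2-fold (red up, blue down), with dotted lines at 2-fold. EREG is down against FIT in each of the D-2, D-3 and DP-3 panels, NRG1 is down in D-3 and DP-3 day 1 against D-2, and no point is filled in IT against FIT or DP-3 against D-2.

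The other genes of the family were mostly low. ERBB4, the remaining receptor, was at most 0.0668 FPKM, EGF had group means between 0.0894 in FIT and 0.38 in DP-3 day 1, NRG3 between 0.146 and 0.301, and NRG4 at most 0.221 in any library. NRG2, a neuregulin, was higher than NRG1 in group mean everywhere, from 2.08 FPKM in D-2 to 4.06 in DP-3. Of these 5 genes 4 were tested against FIT, of which 1 fell in D-2 (NRG4, log2 fold change -2.96, adjusted p = 0.0127), 1 rose in D-3 (EGF, 1.95, adjusted p = 0.0497) and 0 were called in DP-3 and IT. NRG4 was at most 0.0232 FPKM in D-2 and 0.113 to 0.135 in FIT. It entered that test only through FIT, the group where it was high, so its call is no support for the count. EGF reached 0.1 FPKM in every D-3 library, but in FIT only in replicate 2.

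Of 10 genes for ligand shedding, 2 fell in D-2, 1 fell in D-3 and 2 fell in DP-3 against FIT, and none of the 10 was called up. Of all genes tested against FIT, 14.6% were called in D-2 (747 up, 2099 down) and 6.45% in D-3 (929 up, 470 down). In DP-3 it was 4.82% (332 up, 633 down) and in IT 0%. These shares stand beside the counts of every pathway list given here. Whether a count of 1 or 2 genes differs from them was not tested. ADAM19, a membrane protease that can cut neuregulins, was 51.3, 53.2 and 46.3 FPKM in FIT and between 6.53 and 19.7 in the other groups. No library outside FIT came near the FIT level. Against FIT the log2 fold change of ADAM19 was -1.21 in D-2 (SE 0.10, adjusted p = 0.00159), -2.66 in D-3 (SE 0.21, adjusted p = 0.0012) and -1.45 in DP-3 (SE 0.14, adjusted p = 0.00511). For IT it was -1.75 (SE 0.32, adjusted p = 0.16). RHBDF1, an inactive rhomboid that escorts ADAM17, was 12.8, 15.2 and 11.4 FPKM in FIT, 3.40, 3.01 and 3.93 in D-2, and 5.02, 5.16 and 5.10 in DP-3. It fell in D-2 (log2 fold change -1.78, SE 0.17, adjusted p = 0.00184) and in DP-3 (-1.25, SE 0.16, adjusted p = 0.0122), while D-3 overlapped FIT (-0.08, SE 0.20, adjusted p = 0.853).

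Of 9 inhibitors of the receptors, 1 fell in D-2, 1 fell and 1 rose in D-3, 1 fell in DP-3 and 0 were called in IT. LRIG1, which promotes the breakdown of EGFR-family receptors, was the gene that fell each time. It was 22.97, 20.9 and 22.9 FPKM in FIT, 19.7, 18.02 and 19.6 in IT, 7.63, 7.43 and 7.02 in D-2, 4.98, 5.56 and 5.27 in DP-3, 7.49, 7.95 and 7.96 in DP-3 day 1, and 6.24, 4.67 and 7.79 in D-3. Both tissue groups were above all cell-grown cultures, without overlap. The log2 fold change against FIT was -1.44 in D-2 (SE 0.08, adjusted p = 0.000799), -1.89 in D-3 (SE 0.20, adjusted p = 0.00309) and -1.95 in DP-3 (SE 0.12, adjusted p = 0.00113). In IT it was -0.22 (SE 0.13, adjusted p = 0.558). CBLB, a ubiquitin ligase, was the gene that rose in D-3 (1.64, adjusted p = 0.0479).

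Of 10 genes known to respond to ERK signalling, 1 rose in D-2 (EPHA2, log2 fold change 1.06, adjusted p = 0.00312), 2 fell in D-3 (DUSP4, -1.67, adjusted p = 0.0177, and EPHA4), 1 fell in DP-3 (EPHA4) and 0 were called in IT. EPHA4, an ephrin receptor, was 1.79, 1.55 and 1.39 FPKM in FIT and at most 1.02 elsewhere. Its log2 fold change was -1.67 in D-3 (SE 0.26, adjusted p = 0.0117) and -1.04 in DP-3 (SE 0.23, adjusted p = 0.0356). Of 10 adaptors that couple the receptors to RAS and PI3K, 9 were tested and 0 were called in any comparison. The median log2 fold change of a list against FIT lay between -0.43 and 0.20 for each list and comparison except the other family genes in D-3 (-0.67), beside -0.09 to 0.02 over all genes.

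**Figure D5:**
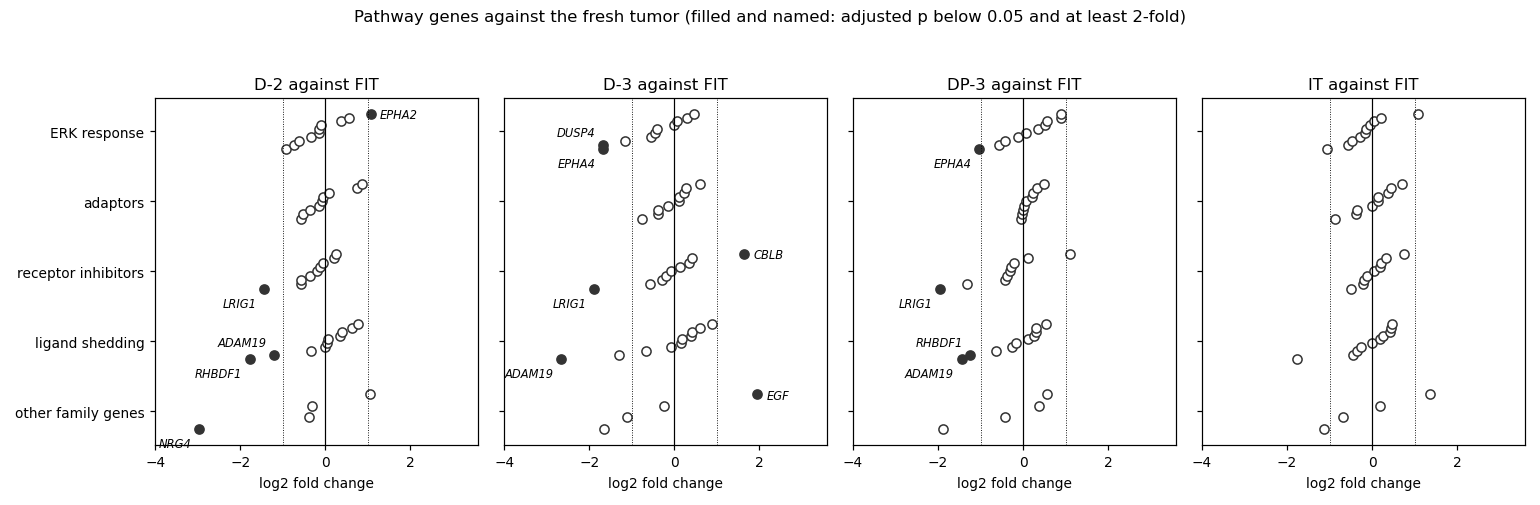
Log2 fold change against FIT of the tested genes of 5 pathway lists (1 point a gene), filled and named where the adjusted p was below 0.05 and the change at least 2-fold, with dotted lines at 2-fold. ADAM19 and LRIG1 are filled in the panels of all cultures grown from cells, and no gene is filled in IT.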

How the data were processed

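The authors filtered reads with Cutadapt 1.9, aligned them with HISAT2 2.0.4 and assembled transcripts with StringTie 1.3.4d, as named in the submitters' processing notes, which also name DESeq2 and edgeR. The genome build is not given in the sources used here. Positions overlapped those of GENCODE 29 (GRCh38) for 99.9% of the 48223 genes found there. The deposited FPKM values and the deposited estimated counts, whole numbers of unstated origin, are the authors'. Of the low counts (1 to 40), 35.0% were multiples of 4, against 25% expected, so counts were treated as estimates and 4 were taken as 1 read pair.

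Groups came from the labels. Each comparison was fitted on its 6 libraries with edgeR 4.0.16 (TMM, quasi-likelihood test) in R 4.3.3, on those genes that reached 0.1 FPKM in 3 or more libraries, with Benjamini-Hochberg adjustment over all genes tested. This test was tried on simulated counts beforehand. SE is the log2 fold change divided by the root of F. Alternatives were DESeq2 1.42.0, limma 3.58.1 on log2(FPKM + 0.1), other filters and scaling, a fit of all 18 libraries, blocking on replicate number, and leaving out libraries one by one. The day 1 libraries as 1 sample were added after seeing the data. All members were named, and from each pathway list the genes called in at least 2 of the 4 comparisons with FIT. EGF, NRG4, CBLB, EPHA2 and DUSP4 fall outside that rule and were named after their values were seen, as were the levels of other family genes. For members with group means spanning at least 2 log2 units and reaching 1 FPKM, the 3 genes with the highest Pearson r over 18 libraries were named. The members and lists (pathway genes and markers of osteoblasts, endothelial cells, macrophages, keratinocytes, skeletal muscle and adipocytes) were chosen with earlier results of these data known, and 1 osteoblast marker is not reported here. No column with values per sample was left unused.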

Additional observations from a re-analysis of the deposited data

How the results depend on the processing

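No member call turned its direction under any alternative. Among member differences with an adjusted p below 0.05 in the reported edgeR fit, the 1 reversal was EGFR in DP-3 day 1 against D-2, which had not reached 2-fold (0.06 with limma). Differences that missed this threshold were not screened, and some reversed. ERBB2 in D-3 against D-2, for instance, was -0.20 as reported and 0.05 with limma. Counts of called members outside 1.5 times the value reported were as follows. With an FPKM minimum of 1, fewer members were tested, and 2 were called in D-2 against FIT, 0 in DP-3 against DP-3 day 1, 1 in D-3 against D-2 and 1 in DP-3 day 1 against D-2. In D-3 against FIT 2 were called with DESeq2, with no filter and with a fit of all 18 libraries, the added member being ERBB3. In DP-3 against D-2 DESeq2 called 3. With the day 1 libraries as 1 sample, which assumes that the lone sample varies like DP-3 or D-2, 0 members were called in DP-3 against DP-3 day 1 and 1 in DP-3 day 1 against D-2. With 1 library left out, the counts ranged from 3 to 4 in D-2 against FIT, 0 to 2 in D-3 against FIT, 0 to 1 in DP-3 against FIT, 1 to 3 in DP-3 against DP-3 day 1, 2 to 6 in D-3 against D-2, 0 to 1 in DP-3 against D-2 and 1 to 3 in DP-3 day 1 against D-2, and stayed at 0 in IT against FIT. The cause of these changes was not tested, other than the number of members tested.

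Replicate numbers showed no clear pairing of the libraries. The deviations of same-numbered libraries from their group means correlated between -0.0858 and 0.111 over 24 pairs, and no comparison had every pair above 0.1. In IT against FIT, which came from divided tumors, they correlated between 0.0177 and 0.0625. Libraries of unlike number were not compared, so this check cannot exclude pairing. With the replicate block, 3 members were called in D-2 against FIT, 0 in D-3 against FIT and 0 in DP-3 against FIT, where EREG had adjusted p = 0.0576 and 0.0529 and BTC in D-2 had 0.0593, and 6 in D-3 against D-2, EGFR being added (-1.01). The counts in the other comparisons did not change under the block. Over all genes, 904 were called with the block and 1399 without it in D-3 against FIT, 164 and 965 in DP-3 against FIT, 938 and 1571 in DP-3 against DP-3 day 1, and 15 and 193 in DP-3 against D-2. DESeq2 called 2478, 1889 and 692 genes in D-3 against FIT, DP-3 against FIT and DP-3 against D-2. The fit of all 18 libraries called 1619 in DP-3 against FIT. With an FPKM minimum of 1, which tests fewer genes, 1602 were called in D-2 against FIT, 900 in DP-3 against DP-3 day 1, 1902 in D-3 against D-2 and 1647 in DP-3 day 1 against D-2, beside 2846, 1571, 3746 and 3493 with the minimum of 0.1. Limma moved the median of all genes by -0.10 in D-2 against FIT, 0.20 in D-3 against D-2, -0.23 in DP-3 against DP-3 day 1 and 0.25 in DP-3 day 1 against D-2, and leaving out the filter moved it by up to 1.51, in DP-3 day 1 against D-2. For pathway lists, 213 of 260 alternative counts were within 1.5 times the value reported, 33 were lower and 14 higher. The levels of AREG and EPGN in D-2 and DP-3, and of BTC in D-2, rest on few counts, which limits what can be said of them.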

Other observations

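The genes whose levels most resembled those of EREG and NRG1 over the 18 libraries were named by Pearson r on log2(FPKM + 0.1) among 12394 genes. The libraries of a group share their culture, so r describes mainly the groups. For EREG these were SCG2, secretogranin II (r = 0.881), FER1L6 (0.872) and IGFBP3, a carrier of insulin-like growth factors (0.869). SCG2 had a mean of 59.5 FPKM in FIT, 25.3 in IT, 11.3 in DP-3, 7.08 in D-3, 3.77 in D-2 and 3.17 in DP-3 day 1. IGFBP3 had 16.8 FPKM in FIT and 10.6 in IT, against 0.814 to 2.75 in the other groups. All 3 genes were highest in FIT and next highest in IT, the order seen for EREG. For NRG1 the genes were CTNNAL1 (0.918), NUS1 (0.905) and ATP5F1C, a subunit of ATP synthase (0.892). Their means were highest in D-2, 53.1, 27.6 and 75.4 FPKM, and next highest in DP-3, 37.0, 24.0 and 59.2 FPKM. NRG1 had the same top groups, which again follows from the choice.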
